A study of Mus musculus with 4 samples.

Results

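The mitochondrial ribosomal protein genes were followed in mouse hippocampus as the 78 genes whose symbol starts with Mrpl or Mrps followed by a digit, out of 19388 genes with values. Of these symbols, 49 start with Mrpl, for the large subunit, and 29 with Mrps, for the small subunit. Subunits are counted by symbol below unless stated, although Mrps18a and Mrps30 sit in the large subunit and Mrps36 in neither. Polyadenylated RNA was sequenced in 4 samples of hippocampus from C57BL/6 mice, a common inbred laboratory strain. The 2 control samples came from mice given PBS, a buffered saline, and the other 2 from mice treated with (+)-Sodium L-ascorbate, the sodium salt of vitamin C, for 30 days by the account of the series. The title of the series speaks of cognition in mice of middle age, while exact age, sex, dose and route are not given in the sources used here, and all samples share the strain and the tissue label. Each treatment holds a sample numbered 1 and a sample numbered 2, and what the number stands for is not stated. Both the treatments and the numbers were compared. No label states that replicates are separate animals, so every p-value below measures only the spread between these 4 samples, which may be technical.

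Mitochondria carry their own ribosomes, which translate the few proteins that mitochondrial DNA encodes, all of them core subunits of the respiratory chain and ATP synthase. The RNA of these ribosomes is made inside the organelle, while every one of their proteins is encoded in the nucleus, made in the cytosol and imported. The small subunit reads the messenger RNA, and the large subunit joins the amino acids and releases the chain through a tunnel that faces the inner membrane. In neurons, mitochondria near synapses depend on this supply, and inherited defects of several of these proteins in humans affect brain, heart and liver.

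Values were deposited as FPKM, read fragments per unit of transcript length and per unit of mapped depth. Because they are scaled by length, levels can be set side by side between genes. They summed to 391142 and 372683 in PBS samples 1 and 2, and to 386956 and 348133 in ascorbate samples 1 and 2. Read depth is unknown, which leaves single values without a counting error. The samples stood apart by number in the markers of several brain regions and cell types. Summed FPKM of 10 thalamic neuron markers was 423 and 522 in the samples numbered 1 and 57.7 and 44.3 in those numbered 2, and all 10 were past the adjusted threshold as lower in number 2. Of 8 markers of the hippocampal field CA1, all were higher in number 2 and 5 passed, with sums of 36.4 and 71.4 FPKM against 146 and 170 FPKM. All 8 oligodendrocyte markers passed as lower in number 2, from 3726 and 3640 FPKM to 1989 and 1605 FPKM. Of 6 ependymal and motile cilia markers, all were lower in number 2 and 1 passed, with sums of 84.1 and 91.5 FPKM against 41.1 FPKM in PBS sample 2 and 8.23 FPKM in ascorbate sample 2. Of 4 tested erythrocyte markers 3 passed as lower, from 115 and 92.4 FPKM to 18.1 and 21.6 FPKM. Dentate gyrus markers, 4 of 7, and hippocampal and forebrain neuron markers, 4 of 6, passed as higher in number 2. Of 7 astrocyte markers 2 passed as lower and 1 as higher. The treatments stood apart in 10 choroid plexus markers, which summed to 8420 and 7548 FPKM under PBS and to 106 FPKM in ascorbate sample 1, with ascorbate sample 2 lower still and Otx2 at 0 in a sample. All 10 meningeal fibroblast markers were also lower in both ascorbate samples, with sums of 171 and 201 FPKM under PBS and 42.6 and 38.0 FPKM under ascorbate, and 0 genes of either list passed. By mean log2 difference, all 8 CA1 markers were higher with ascorbate (median 0.58). All 8 oligodendrocyte markers (-0.19) and all 6 tested endothelial and mural markers (-0.22) were lower, and 0 of these genes passed. Markers of thalamus, dentate gyrus, astrocytes and microglia went both ways between the treatments. In bulk RNA, fewer cells of a type and less RNA per cell cannot be told apart.

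All 78 genes were expressed in every sample, and all had a mean of at least 1 FPKM, the minimum for testing that 13372 genes met. Their mean FPKM had a median of 22.0, against 11.4 for all tested genes, and the middle of the range, from the first to the third quartile, ran from 15.4 to 31.2. The large subunit genes had a median level of 22.3 FPKM and the small subunit genes of 21.6 FPKM. Mrps21, the counterpart of a small bacterial protein of the same subunit, had the highest level, at 78.9 and 64.1 FPKM in PBS samples 1 and 2 and 74.0 and 56.7 FPKM in ascorbate samples 1 and 2. It was followed in the small subunit by Mrps33, with 49.4 to 59.6 FPKM, and Mrps18c, with 48.9 to 57.4 FPKM. In the large subunit the highest were Mrpl27, whose bacterial counterpart reaches into the peptidyl transferase centre, with 54.9 to 70.5 FPKM, Mrpl42 with 42.5 to 69.1 FPKM and Mrpl30 with 51.6 to 64.8 FPKM. At the lower end, Mrpl17 stood at 4.17 and 3.32 FPKM under PBS and 4.29 and 3.36 FPKM under ascorbate, Mrpl19 between 6.80 and 7.36 FPKM and Mrpl57 between 6.94 and 9.28 FPKM. The lowest small subunit levels were those of Mrps28, from 6.19 to 12.4 FPKM, Mrps30, from 10.5 to 12.8 FPKM, and Mrps2, from 10.8 to 13.4 FPKM. Neighbours in these orders overlapped in range, except that the highest value of Mrpl17 lay below the lowest of Mrpl19. Transcripts of other loci match Mrps21, Mrps33, Mrpl27, Mrpl42, Mrpl19 and Mrps30 at 95% or more over at least 200 bases, so their levels are uncertain, and with them the gap between Mrpl17 and Mrpl19.

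**Figure D1:**
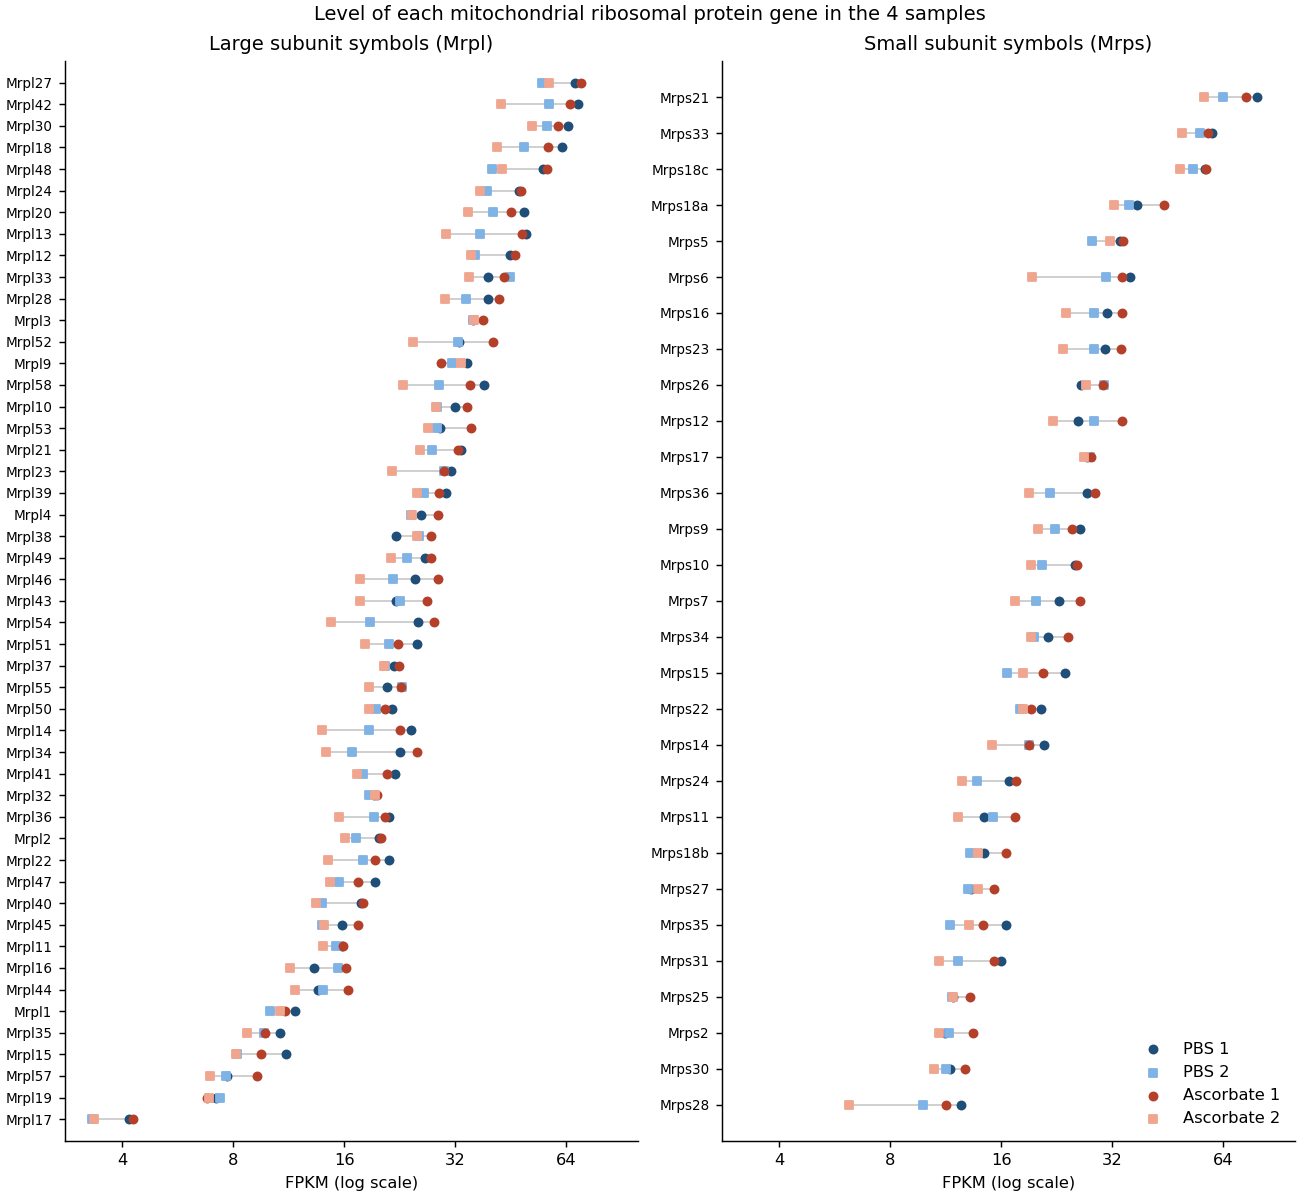
FPKM on a log scale for each of the 78 genes (rows, ordered by mean level within each subunit) in the 4 samples, with circles for number 1, squares for number 2, blue for PBS and red for ascorbate. For most genes the squares lie to the left of the circles, and the ascorbate sample 2 square is the lowest point for 59 genes.

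The genes were scattered over 17 chromosomes of the mouse genome (GRCm38), with 11 of them on chromosome 11, 8 on chromosome 17 and 7 on chromosome 6. Many share a start region with another gene read in the opposite direction: 26 of the 78 (33.3%) began within 1000 bases of such a partner, against 2041 of 18435 genes (11.1%) with values and a coding start. The latter include genes below the minimum level for testing, which all 78 met, so the 2 shares are not for genes of like expression. One of these pairs joins the subunits, since Mrpl46 and Mrps11 on chromosome 7 start 30 bases apart. Promoter windows from 250 bases before to 50 bases after a RefSeq transcript start (GRCm38.p6) were found for 69 of the 78 genes, in 75 windows. They were searched on both strands for the letters of 4 motifs. CCGGAAG, a core bound by ETS factors such as GABP, was in 34.7% of the members' windows and in 15.8% of 13769 windows of tested genes. AAGATGGC, the core of YY1 sites, was in 16.0% against 4.07%, and GCATGCGC, the core of NRF1 sites, in 10.7% against 4.87%. The YY1 letters lay after the transcript start in 8 of the members' windows (10.7%), against 2.2% of all windows, so in most of the members' matches they are part of the transcribed sequence. GGGCGGG, bound by SP1, was in 42.7% against 45.3%. The ETS and YY1 letters can overlap, which they did in none of the members' windows and in 1 of all windows. Letters in a window are a description and show no binding. The 3 windows below are those of Mrpl34, which had the smallest p between the numbers, of Mrps11, whose start lies beside that of Mrpl46, and of Mrps27, which had the smallest p among the members higher in both ascorbate samples. They lie at chr8:71464676-71464975, chr7:78782881-78783180 and chr13:99344536-99344835, all on the plus strand. Capitals mark the ETS letters in Mrpl34, the YY1 and then the SP1 letters in Mrps11, and the ETS and then the YY1 letters in Mrps27, where the latter begin 15 bases into the transcript. Each is printed 5′ to 3′ along the gene's strand, so CTTCCGG and GCCATCTT are ETS and YY1 letters on the other strand.
Mrpl34: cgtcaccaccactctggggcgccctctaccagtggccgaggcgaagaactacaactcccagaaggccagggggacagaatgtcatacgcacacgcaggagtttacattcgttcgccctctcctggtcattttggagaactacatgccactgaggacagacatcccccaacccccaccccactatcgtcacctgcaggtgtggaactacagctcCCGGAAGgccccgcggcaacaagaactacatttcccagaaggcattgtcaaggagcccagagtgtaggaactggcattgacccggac
Mrps11: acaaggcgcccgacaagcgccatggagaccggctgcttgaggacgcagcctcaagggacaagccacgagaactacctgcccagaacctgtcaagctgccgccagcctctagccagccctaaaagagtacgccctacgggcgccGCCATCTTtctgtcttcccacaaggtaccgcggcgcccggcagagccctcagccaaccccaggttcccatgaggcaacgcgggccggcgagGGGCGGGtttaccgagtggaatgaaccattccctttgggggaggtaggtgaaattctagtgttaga
Mrps27: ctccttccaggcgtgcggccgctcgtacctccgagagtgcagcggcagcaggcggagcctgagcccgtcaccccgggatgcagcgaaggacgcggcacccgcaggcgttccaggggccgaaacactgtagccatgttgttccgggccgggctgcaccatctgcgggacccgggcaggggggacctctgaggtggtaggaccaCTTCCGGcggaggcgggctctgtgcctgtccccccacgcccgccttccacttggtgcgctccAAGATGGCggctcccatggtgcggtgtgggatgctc

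Between the numbers, the genes of both subunits were lower together in the samples numbered 2. Summed FPKM of the 49 large subunit genes was 1421 and 1446 in the PBS and ascorbate samples numbered 1 and 1243 and 1116 in those numbered 2. The 29 small subunit genes summed to 771 and 798 FPKM in number 1 and to 692 and 625 FPKM in number 2. The ratio of the large to the small sum stayed between 1.79 and 1.84 in the 4 samples. Set against all FPKM of each sample, the 78 genes made up 0.560% and 0.580% in number 1 and 0.519% and 0.50% in number 2, so the order of the samples does not rest on the totals alone.

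**Figure D2:**
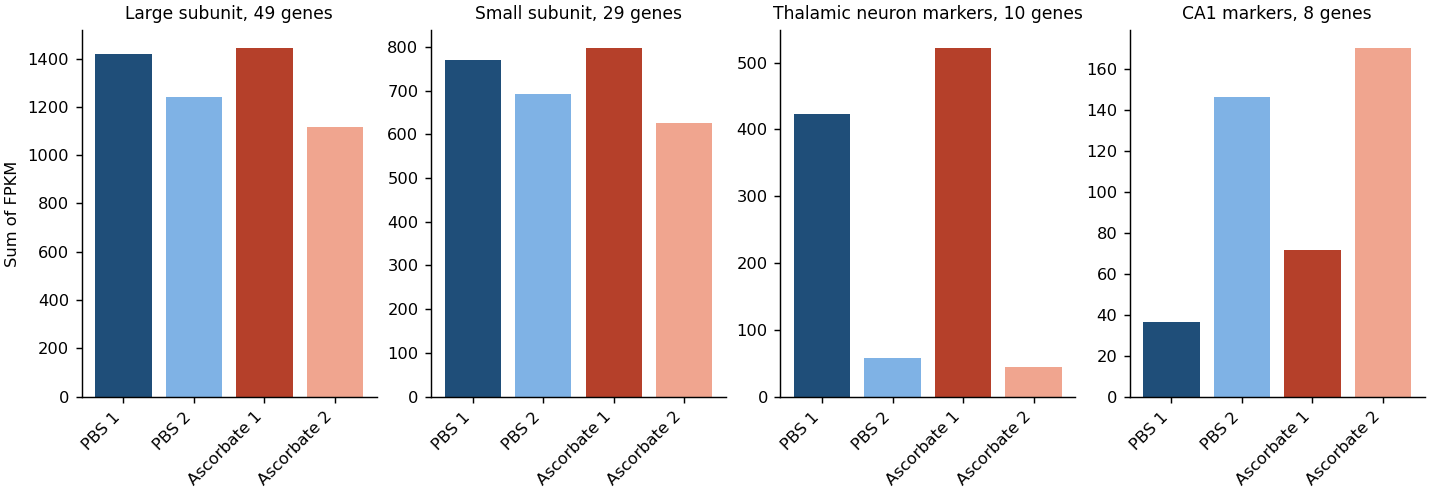
Summed FPKM (linear axes from 0) of the large subunit genes, the small subunit genes, 10 thalamic neuron markers and 8 CA1 markers in each of the 4 samples, 1 bar per sample. The subunit sums are lower in both samples numbered 2 than in both numbered 1, the thalamic sums are 423 and 522 against 57.7 and 44.3 FPKM, and the CA1 sums are higher in number 2.

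Per gene, the difference was taken on the log2(FPKM + 1) scale as number 2 minus number 1. The median over the 78 genes was -0.25, against -0.08 over all 13372 tested genes. It was -0.26 for the large and -0.23 for the small subunit. Within PBS the medians were -0.19 and -0.12, and within ascorbate -0.33 and -0.31. In all, 74 genes were lower in number 2, and both samples numbered 2 lay below both numbered 1 for 60 of the 78 (38 large, 22 small), where this held for 38.5% of all tested genes. The opposite order was found for 0 of the 78, against 22.6% of tested genes. Within PBS 65 of 78 were lower (60.3% of tested genes), and within ascorbate 76 of 78 (59.2%). Rescaling the samples moved the level of these differences: the all-gene median went from -0.08 to 0.02 when each sample was scaled to the same FPKM sum (TPM), while the members' median stayed negative, at -0.15 with TPM, -0.16 with median-of-ratios scaling and -0.20 with quantile normalization. Relative to all genes the members' median was -0.17, -0.17, -0.17 and -0.21 under the deposited scale and these 3 in turn. With the same 3 scalings, number 2 lay below number 1 for 42, 46 and 50 members (53.8%, 59% and 64.1%), against 28.2%, 29.3% and 29.0% of tested genes.

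Few of these genes passed a test on their own. In limma-trend with Benjamini-Hochberg adjustment over all tested genes, 2 of the 78 fell past the adjusted threshold of 0.05, where 6.95% of tested genes were called lower, and 0 rose, where 5.03% were called higher. An unadjusted p under 0.05 with a lower value in number 2 was found for 26 (18 large, 8 small), where 19.0% of tested genes had one. The share called was thus below that of all tested genes, whereas the share with groups that did not overlap was above it. By size, 5 were lower by more than 0.5 on the log2 scale, 36 by 0.25 to 0.5 and 33 by less than 0.25, and 4 were higher, namely Mrpl9, Mrpl19, Mrpl38 and Mrps26. Markers of thalamus, oligodendrocytes, ependyma, erythrocytes, CA1, dentate gyrus and forebrain neurons differed between the same samples, and their part in the members' difference was not tested.

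Mrpl34, the counterpart of a small bacterial protein of the large subunit (gene ID 94065, chromosome 8, 71464926 to 71465753), had the smallest p. It stood at 22.7 FPKM in PBS sample 1 and 16.8 FPKM in PBS sample 2, and at 25.3 and 14.3 FPKM in the ascorbate samples. Both samples numbered 2 were well below both numbered 1, a mean ratio of 0.647 and a log2 difference of -0.60 (SE 0.13, limma adjusted p = 0.0375). The other gene that passed was Mrpl54, a large subunit protein with no bacterial counterpart (gene ID 66047, chromosome 10, 81264722 to 81266926), with 25.4 and 18.8 FPKM in PBS samples 1 and 2 and 28.1 and 14.7 FPKM in ascorbate samples 1 and 2. Its mean ratio was 0.627 and its log2 difference -0.65 (SE 0.15, limma adjusted p = 0.0437), and its groups did not overlap either. Over the alternatives the limma adjusted p ran from 0.00224 to 0.190 for Mrpl34 and from 0.00164 to 0.194 for Mrpl54. Both calls were lost without PBS sample 1, without ascorbate sample 1 and without ascorbate sample 2. They were also lost with TPM (limma adjusted p = 0.0578 for each), with median-of-ratios scaling, without the filter on low values and without the variance trend. Each call was thus lost in 7 alternatives and kept in 7.

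The next in order of p had the same ordering of samples without passing. Mrpl48 had 55.3 and 40.3 FPKM under PBS and 56.9 and 42.8 FPKM under ascorbate in samples 1 and 2 (log2 difference -0.43, SE 0.10, limma adjusted p = 0.0557). Mrpl13, the counterpart of bacterial L13, had 49.7 and 37.5 FPKM under PBS and 48.7 and 30.2 FPKM under ascorbate (-0.54, SE 0.13, limma adjusted p = 0.0593). Mrps36, which carries a ribosomal symbol but is known as a component of the 2-oxoglutarate dehydrogenase complex, had 27.4 and 21.7 FPKM and 28.8 and 19.0 FPKM (-0.45, SE 0.11, limma adjusted p = 0.0621). Values of these 3 genes are uncertain because other transcripts share their sequence: a pseudogene with Mrpl48 at 98.1% identity over 636 bases, Mtbp with Mrpl13 over 330 bases, and 4 pseudogenes with Mrps36. Mrpl48 also overlaps Rab6a on the opposite strand by 727 bases.

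Among the places in the large subunit that were set apart here, the median was furthest from no difference in the central protuberance, the crest of the subunit. The 6 proteins assigned to it were chosen after values had been seen and may not be all of its proteins, so the grouping is only a description. Mrpl58, a peptidyl-tRNA hydrolase built into the ribosome, had 38.3 and 29.0 FPKM under PBS and 35.0 and 23.2 FPKM under ascorbate in samples 1 and 2 (log2 difference -0.48, SE 0.14, limma adjusted p = 0.0850). Mrpl46 differed by -0.43, Mrpl48 by -0.43, Mrpl18 by -0.39, Mrpl40 by -0.36 and Mrpl38 by 0.04, with a median of -0.41 that remained negative under each of the 3 scalings (-0.30 to -0.35). The stalk, where translation factors land, held Mrpl12, which in humans also binds the mitochondrial RNA polymerase, Mrpl10, which anchors it, and Mrpl11. Mrpl12 had 45.2 and 36.2 FPKM under PBS and 46.6 and 35.4 FPKM under ascorbate, so that the numbers were separate and the treatments nearly alike (-0.35 between numbers, SE 0.10, limma adjusted p = 0.0837). Mrpl10 and Mrpl11 differed by -0.21 and -0.11. Around the exit tunnel, 6 genes had a median of -0.26, from -0.32 for Mrpl24 to -0.20 for Mrpl44. Both samples numbered 2 lay below both numbered 1 for 4 of these 6 (66.7%), against 76.9% of the 78 members and 38.5% of tested genes. The 46 genes classed as having a direct bacterial counterpart had a median of -0.26, and the 31 classed as specific to mitochondria -0.23. The second class is loose, since it holds Mrps18a and Mrps18b, which are relatives of a bacterial protein.

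In the small subunit, Mrps28 was the most different between the numbers, with 12.4 and 9.84 FPKM under PBS and 11.4 and 6.19 FPKM under ascorbate (log2 difference -0.55, SE 0.21, limma adjusted p = 0.148). Mrps6 followed, with 35.8 and 30.8 FPKM and 34.1 and 19.4 FPKM (-0.50, SE 0.21, limma adjusted p = 0.188). For both, ascorbate sample 2 was far below the other 3 samples. The gene span of Mrps6, introns included, overlaps that of Slc5a3, an inositol transporter gene, on the same strand over 29138 bases, and Slc5a3 had 8.91 and 9.24 FPKM under PBS and 7.05 and 5.18 FPKM under ascorbate. How reads of the pair were assigned is not given in the sources used here. Mrps12, the decoding centre protein that in bacteria sets accuracy, did not separate by number: 25.8 and 28.5 FPKM under PBS, 33.9 and 22.1 FPKM under ascorbate. The 3 relatives of bacterial S18 differed by -0.25 (Mrps18a), -0.18 (Mrps18b) and -0.17 (Mrps18c). Despite their symbols Mrps18a and Mrps30 sit in the large subunit. Counting by place in the ribosome, with Mrps36 in neither, gave medians of -0.26 for 51 large and -0.22 for 26 small subunit proteins. Among genes that share bases with a neighbour on the same strand, Mrps23 (30.7 and 28.6 FPKM, then 33.8 and 23.5 FPKM) overlaps Cuedc1 by 35 bases and Mrpl53 (29.1 and 28.6 FPKM, then 35.4 and 27.0 FPKM) overlaps Ccdc142 by 14 bases.

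The pair that shares a start had the same highest and lowest samples but not the same order of the 2 PBS samples. Mrpl46 had 24.9 and 21.8 FPKM under PBS and 28.8 and 17.7 FPKM under ascorbate, while Mrps11 had 14.4 and 15.2 FPKM under PBS and 17.5 and 12.2 FPKM under ascorbate. Ascorbate sample 1 was the highest and ascorbate sample 2 the lowest for both. PBS sample 2 minus PBS sample 1 was 0.07 on the log2 scale for Mrps11 and -0.18 for Mrpl46. Each is a difference between 2 single samples of unknown depth.

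Transcripts of these genes are short, with a median coding transcript length of 1052 bases against 2244 over all tested genes, and short transcripts were lower in number 2 throughout the data. When all tested genes were divided into 10 classes of about equal size by length, the class of the shortest transcripts (189 to 781 bases) had a median difference of -0.20 and the class of the longest 0.05. In the shortest class the 24 members had a median of -0.27 and all 24 were lower, and in the next class (782 to 1109 bases) the 16 members had -0.34 against -0.19 for all genes of that length. Across the 78 genes, the correlation of log2 length with the difference was 0.405, and across 13138 tested genes with a length 0.172. These are correlations across genes of the same 4 libraries, and genes are not independent replicates. The part of length in the members' difference was not tested.

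**Figure D3:**
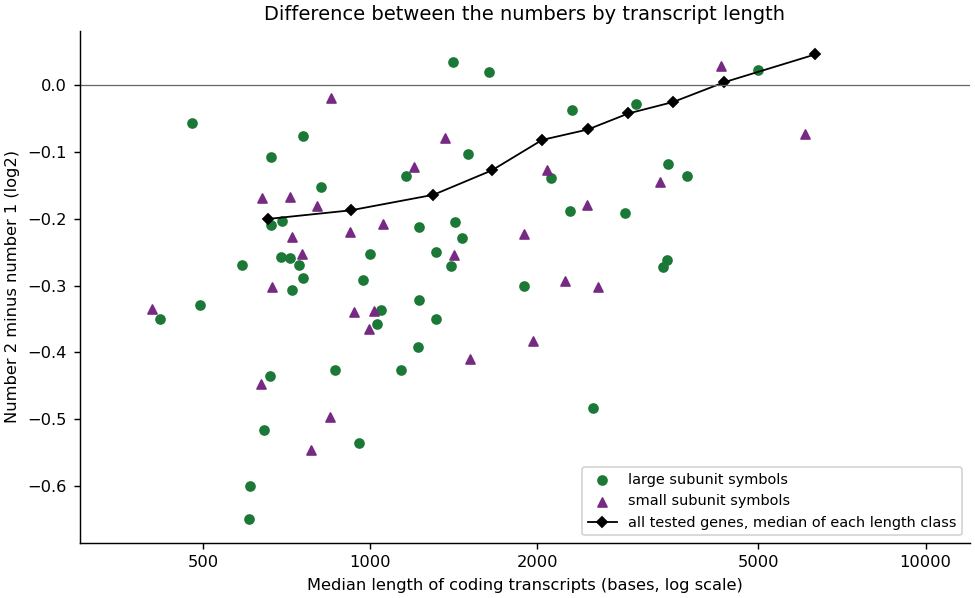
Difference between the numbers on the log2(FPKM + 1) scale against the median length of a gene's coding transcripts (bases, log scale) for the large subunit genes (circles), the small subunit genes (triangles) and, as a line, the median of all tested genes in each of 10 length classes. The line climbs from -0.20 to 0.05, and most members of the 2 shortest classes lie below it.

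Between the treatments, no mitochondrial ribosomal protein gene passed the test, and the 2 pairs of samples differed in opposite directions. The median of ascorbate minus PBS was -0.04 on the log2 scale, against -0.02 over all tested genes, and it turned positive with TPM (0.01) and with median-of-ratios scaling (0.01). The large subunit median was -0.05 and the small subunit median -0.02, and the latter turned positive with the same 2 scalings (0.03 each). Of the 78 genes, 74 lay within 0.25 of no difference. In limma-trend 0 of the 78 passed the adjusted threshold and 0 had an unadjusted p under 0.05. Among all tested genes 0.0% passed, and 377 had an unadjusted p under 0.05, of which 364 were lower with ascorbate. Every member had a limma adjusted p of 0.9998. This p does not show that levels were alike: the SE of a member's log2 difference was between 0.13 and 0.36, because the difference between the numbers enters the spread within each treatment.

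In the pair numbered 1, the median of ascorbate minus PBS was 0.02 for the large and 0.05 for the small subunit, and 31 of the 78 genes were lower with ascorbate, against 52.5% of tested genes. In the pair numbered 2 the medians were -0.11 and -0.13, and 62 of the 78 were lower, against 55.8%. Over all 78 the medians were 0.03 and -0.12, and they had the same signs with TPM (0.05 and -0.03), with median-of-ratios scaling (0.07 and -0.07) and with quantile normalization (0.01 and -0.09). Ascorbate sample 1 was the highest of the 4 samples for 44 genes and PBS sample 1 for 30. Ascorbate sample 2 was the lowest for 59 and the highest for 0. Without ascorbate sample 2 the median of ascorbate minus PBS was 0.12, and without PBS sample 1 it was 0.04, so leaving out either of these samples turned its sign. It was -0.21 without ascorbate sample 1 and -0.13 without PBS sample 2.

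**Figure D4:**
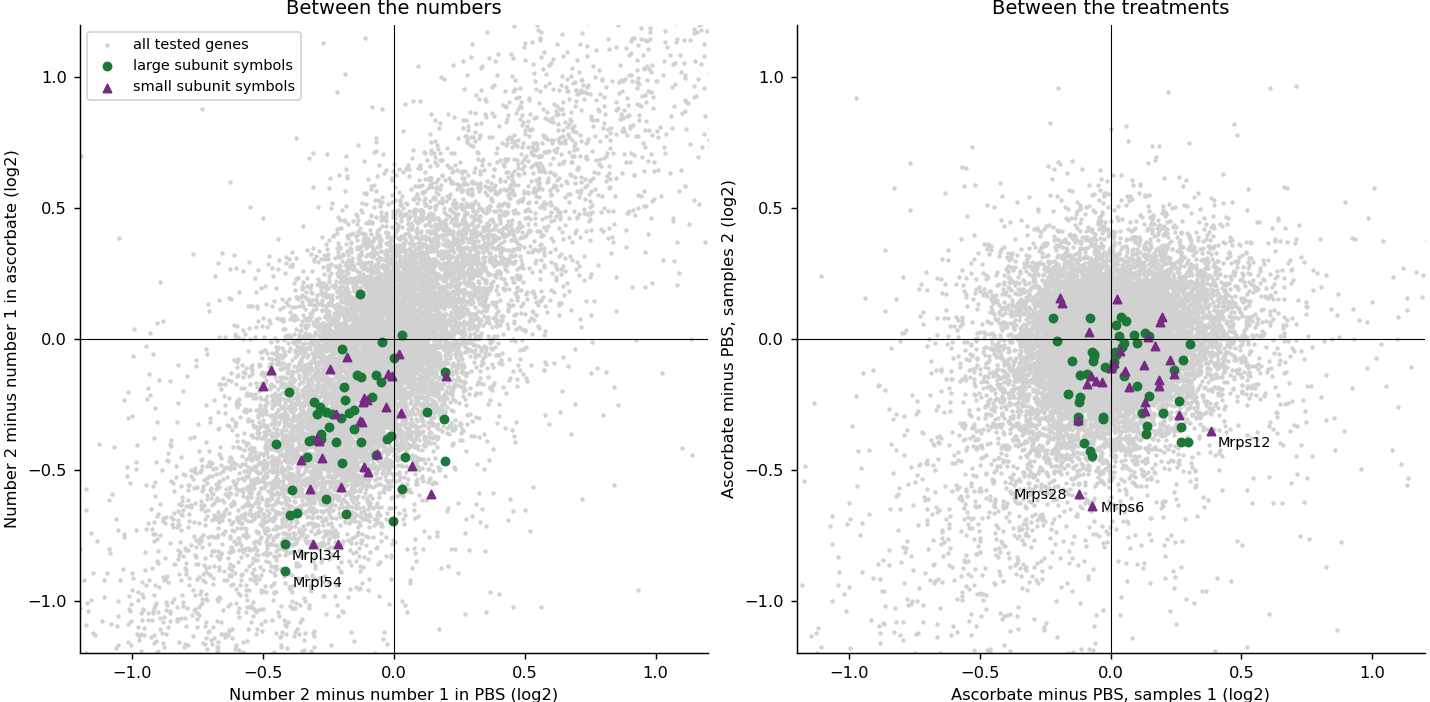
Each point is a gene on the log2(FPKM + 1) scale: on the left, number 2 minus number 1 within PBS (x) and within ascorbate (y), on the right, ascorbate minus PBS in the pair numbered 1 (x) and the pair numbered 2 (y). Green circles are large and purple triangles small subunit genes, grey dots are all tested genes (755 on the left and 286 on the right lie outside the axes, none of them members). On the left most members lie at the lower left, and on the right they spread around no difference with more of them below than above the horizontal line.

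For 2 of the 78 genes both ascorbate values were below both PBS values, where this held for 14.4% of tested genes, and for 4 they were above, where it held for 8.65%. Mrpl23, a protein at the tunnel exit whose gene lies near the imprinted H19 and Igf2 genes (chromosome 7, 142532467 to 142540747), had 31.3 and 29.8 FPKM under PBS and 29.8 and 21.6 FPKM under ascorbate. Its lower PBS value and its higher ascorbate value are almost equal, and its log2 difference was -0.26 (SE 0.20). A pseudogene shares 507 bases with it. Mrpl19 had 7.18 and 7.36 FPKM under PBS and 6.80 and 6.88 FPKM under ascorbate (-0.08, SE 0.14), and it shares 1967 bases with transcripts of Gcfc2, which it overlaps.

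Of the 4 genes that were higher in both ascorbate samples, Mrps27, a pentatricopeptide repeat protein of the small subunit, had 13.3 and 13.0 FPKM under PBS and 15.3 and 13.9 FPKM under ascorbate (0.14, SE 0.14). Mrps25 had 11.84 and 11.79 FPKM under PBS and 13.18 and 11.86 FPKM under ascorbate, so the groups are apart by 0.02 FPKM only. Its transcripts share 3533 bases with Nr2c2, which lies on the opposite strand, and reads of the 2 cannot be told apart without a strand setting. Mrpl3, whose bacterial counterpart reaches towards the catalytic centre, had 35.67 and 35.68 FPKM under PBS and 38.0 and 36.1 FPKM under ascorbate, and Mrpl32, which in yeast and mouse is matured by the m-AAA protease, had 19.3 and 18.7 FPKM and 19.6 and 19.4 FPKM. For all 4 the log2 difference was about as large as its SE or smaller. The share of the 78 genes higher in both ascorbate samples was 5.13% on the deposited scale, against 8.65% of tested genes. With TPM it was 16.7% (13 genes), against 13.3%. With median-of-ratios scaling it was 11.5% (9 genes), against 12.8%, and with quantile normalization 8.97% (7 genes), against 13.0%.

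In the larger differences between the treatments, ascorbate sample 2 was the lowest sample. Lower by more than 0.25 on the log2 scale were Mrps28 (-0.36, SE 0.31), Mrps6 (-0.36, SE 0.30), Mrpl23 and Mrpl42 (-0.25, SE 0.26), and 0 genes were higher by as much. Mrpl42 had 69.1 and 57.5 FPKM under PBS and 65.4 and 42.5 FPKM under ascorbate. For Mrps6 the difference was -0.07 in the pair numbered 1 and -0.64 in the pair numbered 2, and for Mrps28 -0.12 and -0.59. For Mrps12 it was 0.38 and -0.35. Mrps18a, which overlaps the cilia gene Rsph9 on the opposite strand, had 37.3 and 35.7 FPKM under PBS and 44.3 and 32.4 FPKM under ascorbate. Choroid plexus and meningeal markers had median differences of -3.87 and -1.49 on the log2 scale between the treatments. In the pairs numbered 1 and 2, ependymal markers had medians of 0.02 and -1.92, CA1 markers 0.88 and 0.19, and oligodendrocyte markers -0.02 and -0.41. The members' medians were 0.03 and -0.12 in these pairs, and the part of the markers in the members' values was not tested.

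Other genes of mitochondrial translation were set beside the ribosomal proteins. Of all tested genes, 60.8% were lower in number 2, and 6.95% were called lower. The 5 mitochondrial ribosomal proteins with other symbols had a median of -0.32 between the numbers. Among them Aurkaip1 had 40.7 and 32.3 FPKM under PBS and 45.1 and 30.8 FPKM under ascorbate, and Chchd1 59.9 and 43.5 FPKM and 51.5 and 38.1 FPKM (limma adjusted p = 0.0617 and 0.0904), and 0 of the 5 passed. Of 26 assembly factors 1 fell, the ribosomal RNA methyltransferase Mrm1, with 5.75 and 3.66 FPKM under PBS and 5.85 and 3.62 FPKM under ascorbate (log2 difference -0.55, SE 0.12, limma adjusted p = 0.0432), and their median was -0.13. Mrm3, which methylates the same RNA, differed by -0.46 (limma adjusted p = 0.0735). Of 16 translation factors 0 passed, with a median of -0.10. The elongation factor Tufm had 35.8 and 30.5 FPKM under PBS and 41.4 and 28.0 FPKM under ascorbate, and Slirp, which stabilises mitochondrial messenger RNA, had 66.7 and 51.7 FPKM, then 59.3 and 41.9 FPKM. Both had each sample numbered 2 below each numbered 1, as most members did. Of 20 genes listed as mitochondrial aminoacyl-tRNA synthetases 0 passed, and their median was -0.02. The list is loose, since it holds Qrsl1, which is not itself a synthetase. The 2 with the smallest p went opposite ways, Yars2 by -0.39 and Vars2 by 0.25 (limma adjusted p = 0.0746 and 0.207).

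The 14 genes of mitochondrial transcription and its nuclear regulators had a median of 0.03, and 1 of them fell, the nuclear receptor Esrra, with 26.9 and 20.7 FPKM under PBS and 28.6 and 17.9 FPKM under ascorbate (log2 difference -0.51, SE 0.12, limma adjusted p = 0.0481). The mitochondrial DNA polymerase Polg differed by 0.25 (limma adjusted p = 0.252). With TPM the medians of the translation factors, the synthetases and these regulators were 0.01, 0.09 and 0.14, so the first 2 of these changed sign, while that of the 5 other ribosomal proteins stayed at -0.23. Nuclear subunits of oxidative phosphorylation, the complexes that mitochondrial ribosomes help to build, had a median of -0.38. They were lower in number 2 for 82 of 82 genes, against 60.8% of tested genes. Of them 3 fell, where 6.95% of tested genes were called lower. Ndufb2 differed by -0.52 and Ndufs6, whose start lies 51 bases from that of Mrpl36, by -0.51 (limma adjusted p = 0.0368 and 0.0395). Cytosolic ribosomal proteins were lower for 75 of 77, with a median of -0.33, and 1 of them fell, Rpl21 (-0.49, limma adjusted p = 0.0402), while Rps6 differed by -0.56 (limma adjusted p = 0.0902). Both medians remained negative with the 3 scalings.

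Between the treatments the same lists had medians of -0.06 for the 5 other ribosomal proteins, -0.01 for assembly, -0.00493 for translation factors, 0.02 for synthetases and -0.02 for regulators, with 0 genes past the adjusted threshold. Several of these signs turn with TPM, where assembly was at 0.04, translation factors at 0.05 and regulators at 0.04. The smallest p among them was that of the release factor Mtrf1, with 6.20 and 5.84 FPKM under PBS and 4.20 and 4.80 FPKM under ascorbate (log2 difference -0.35, SE 0.15, limma adjusted p = 0.9998). Of the other genes with the smallest p in these lists, the elongation factor Gfm1 differed by -0.15, Gtpbp10 by -0.21, Mterf4 by -0.17, Ptcd3 by -0.11, Chchd1 by -0.20, Fars2 by -0.27, Qrsl1 by -0.20, Ppargc1a by -0.22 and Tefm by -0.19 (limma adjusted p = 0.9998 each). Cytosolic ribosomal proteins and oxidative phosphorylation subunits were lower with ascorbate, with medians of -0.16 and -0.19 that were -0.10 and -0.14 with TPM, and 0 of them passed. The smallest p of these was that of Cox8b, the form of a cytochrome oxidase subunit known from heart and skeletal muscle, with 20.3 and 6.22 FPKM under PBS and 0.90 and 0.38 FPKM under ascorbate (limma adjusted p = 0.649). Ndufa1 differed by -0.47 and Rps27l by -0.38. The members of the mitochondrial ribosome were nearer to no difference than either list, and the difference between the lists was not tested.

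**Figure D5:**
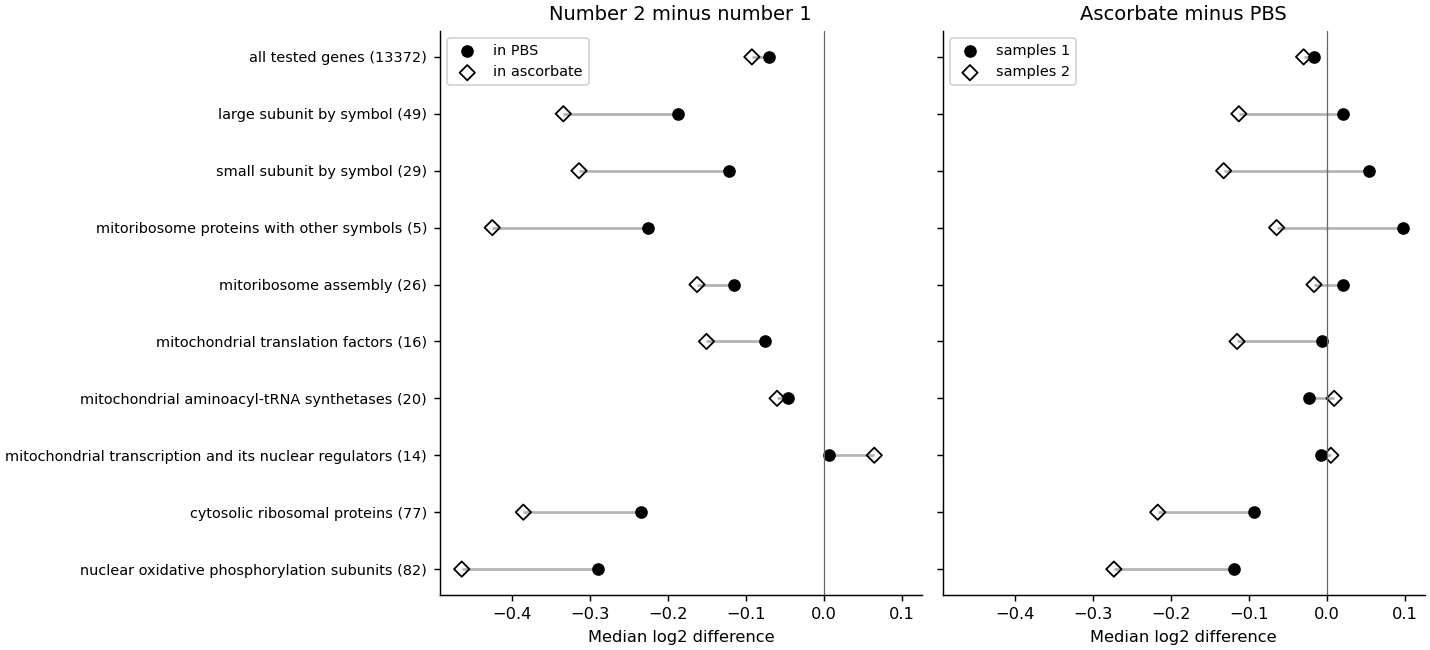
Median log2 difference of each gene list (number of tested genes in brackets) for number 2 minus number 1 (left; dots within PBS, diamonds within ascorbate) and ascorbate minus PBS (right; dots for the samples numbered 1, diamonds for those numbered 2). Both subunits lie left of all tested genes on the left panel and on both sides of 0 on the right panel, and with TPM the pooled medians between the numbers of the translation factors and synthetases turn positive.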

How the data were processed

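The deposited files hold FPKM for 1 library each, given to 2 decimals, per the file headers. The submitters' processing notes name GRCm38 and the tools HISAT2, Bowtie2, RSEM and DESeq2. Versions, annotation, strand setting and filters are not given in the sources used here, so overlapping or near-identical genes may have taken each other's reads. FPKM are relative to each library's total, so an abundant transcript lowers all others. Depth is unknown.

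Differences were tested on log2(FPKM + 1) with limma-trend (limma 3.58.1, R 4.3.3) on the 13372 genes that averaged 1 FPKM or more over the samples, with 2 residual degrees of freedom, Benjamini-Hochberg adjustment over all of them and a threshold of 0.05. Treatment and number were fitted separately. An exact permutation test of 2 against 2 samples cannot go below p = 0.333 (2-sided). The test was checked on simulated data with independent noise for each gene and added changes larger than any member's difference. That check does not cover differences of the members' size or variation shared between genes. Medians and counts over lists carry no test. Positions and promoter windows come from RefSeq (GRCm38.p6), lengths from GENCODE M21, and near-identical transcripts (at least 95% over 200 bases) from BLAST+ 2.17.0. Of the 78 genes, 28 had one, 8 of them with a gene of the files, and 20 overlapped another gene with values, 3 on the same strand. The members, lists and tests were chosen with earlier results of these data known. Named members are the 5 of smallest p per direction and contrast whose groups do not overlap, the 3 highest and lowest per subunit, and those of particular role or overlap. For lists, they are the 2 of smallest p, of which 1 gene is not reported here. Alternatives were other pseudocounts (0.1 and 0.5), filters, scalings and variance models, the replicate block and each sample left out.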

Additional observations from a re-analysis of the deposited data

Results flagged for a closer look

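The direction of the difference between ascorbate and PBS was not the same in the 2 pairs of samples. Over all 78 genes the median log2 difference was 0.0285 in the pair numbered 1 and -0.121 in the pair numbered 2. For the large subunit it was 0.0203 and -0.113, and for the small subunit 0.0547 and -0.132. The members' medians had these signs under TPM, median-of-ratios and quantile scaling as well. The difference between the pairs was not tested, since each pair holds 1 sample per treatment. Ascorbate sample 2 was the lowest of the 4 samples for 59 of the 78 genes, and for 41.0% of all tested genes.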

How the results depend on the processing

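Between the treatments, 0 members passed under any alternative, and over all genes 0 passed except 1 with quantile normalization and 485 with the replicate number as a block. Between the numbers, 1602 genes passed, but 0 without the filter on low values, and from 0 (without ascorbate sample 1) to 1731 with a sample left out, of which 69 without PBS sample 1 and 469 without ascorbate sample 2. Of the 2 members called between the numbers, the count was 0 without the filter, with TPM, with median-of-ratios scaling and without the variance trend, 4 with a minimum of 5 FPKM and with robust variances, and 0 to 8 with a sample left out (8 without PBS sample 2). The cause of these changes was not tested. Fits with a sample left out leave 1 sample in a group and assume that it varies like the others.

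The members' median between the numbers was -0.152 with TPM and -0.162 with median-of-ratios scaling. The small subunit median, -0.23 on the deposited scale, was -0.122 with TPM, -0.134 with median-of-ratios scaling and -0.178 with quantile normalization, and ran from -0.318 to -0.182 with a sample left out. Leaving out the 28 members with a near-identical transcript elsewhere, an alternative chosen after seeing the data, gave -0.24.

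Pairing by number rests on the data only, since the labels give the number no meaning and there are 2 pairs. Differences between the numbers within PBS and within ascorbate had a correlation of 0.770 across all tested genes and 0.271 across the members. With the replicate block, 3708 of 13372 tested genes and 19 of the 78 members passed between the numbers, and 485 genes and 0 members between the treatments. That fit leaves 1 residual degree of freedom.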
